A study of Gallus gallus with 4 samples.

Results

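JUN, CDK6, PDCD2, EXOSC10 and HSPA2 are 5 chicken genes with roles in growth control, RNA handling and protein folding, followed here over 4 cultures of DT40, a B cell line from a bursal lymphoma of the chicken. They are 5 of the 50 genes that could be named on the array and take up 6 of its 42034 probes that are not controls, 1 probe for each gene and a second one for HSPA2. The probes were found by the RefSeq accession that the array files give them, NM_001031289 for JUN, NM_001007892 for CDK6, NM_001031064 for PDCD2, NM_001012730 for EXOSC10 and NM_001006685 for both HSPA2 probes. The genes were chosen by their high signal on these arrays, so their levels below are a description. The study asked whether animal cells, like plant cells, switch on particular genes in response to auxin.

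The 4 groups were parental DT40 without the auxin indole-3-acetic acid (IAA), parental DT40 with 500 µM IAA, a stable DT40 line expressing OsTIR1 without IAA, and that line with 500 µM IAA. OsTIR1 is the rice auxin receptor. Cells were harvested at 6 h and total RNA of each culture was labelled with Cy3 and hybridised to 1 array, so every group has 1 sample and no difference between groups has a replicate check. IAA was added from a stock in ethanol, and no label says whether the untreated cultures received ethanol. The promoter that drives OsTIR1 and whether the line is 1 clone are not stated either, and no probe for OsTIR1 was used here.

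In plant cells auxin joins TIR1 to repressor proteins that are then degraded, which changes transcription within hours. Animal cells lack TIR1, and the rice protein is placed in them to degrade proteins that carry a plant tag. JUN, the cellular counterpart of the v-jun oncogene of an avian sarcoma virus, is part of the transcription factor AP-1 and responds fast to growth factors and stress. CDK6 drives cells out of G1 phase together with D-type cyclins. HSP70 chaperones such as HSPA2 bind unfolded proteins, and members of the family are induced by heat and other protein damage. EXOSC10 is a nuclear exoribonuclease of the RNA exosome, and PDCD2 is known from human and yeast cells as a chaperone of a small-subunit ribosomal protein.

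With IAA the 5 genes were within 1.5-fold of the untreated level in both lines. The IAA difference in signal went from -8.13% for EXOSC10 in parental DT40 to 8.99% for JUN in the OsTIR1 line. PDCD2 had the largest line difference of the 5, at 1.46 times the parental signal in the OsTIR1 line both without and with IAA. This is short of 1.5-fold, and both comparisons use the same 2 lines. HSPA2 lay within 1.03-fold on all 4 arrays by its brighter probe and within 1.1-fold by its dimmer one. These arrays measure RNA of a whole culture, so a change in the share of cells that hold a transcript and a change in the amount per cell cannot be told apart.

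Levels are given as log2 of the processed spot intensity minus the log2 of the 75th percentile of the 42034 probes on the same array. This percentile ranged from 168 to 177 intensity units. Between 47.8% and 58.0% of the probes were well above background by the scanner software's flag, and 19436 were so on all 4 arrays. All 6 probes were well above background on each array, with no saturation and no outlier flag. The 4 files carry 1 and the same scan time, so scanning separates no groups. None of the 12 B lymphocyte markers looked up has a named probe here, so the B cell label could not be checked. TLR4, a macrophage receptor gene, RAG1, the recombinase gene of immature lymphocytes, and VTG2, a liver yolk protein gene, stayed below that flag on all 4 arrays. Their levels lay between -7.07 and -5.40, against medians of -7.00 to -5.61 for the negative control spots.

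The 5 genes had 2.57% to 7.94% of all probes above them, counting the brighter HSPA2 probe, so all 5 were among the brightest 10% on every array. Among the 19436 probes above background everywhere, only EXOSC10 stayed within the brightest 10% on all arrays. By mean level over the 4 arrays the next named genes were GPHN, at levels of 1.97 to 2.28, and LPIN2, at 1.90 to 2.28, while the lowest JUN level was 3.95. Signal also depends on the sequence of a probe, so these figures place spots within an array and do not rank transcripts.

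**Figure D1:**
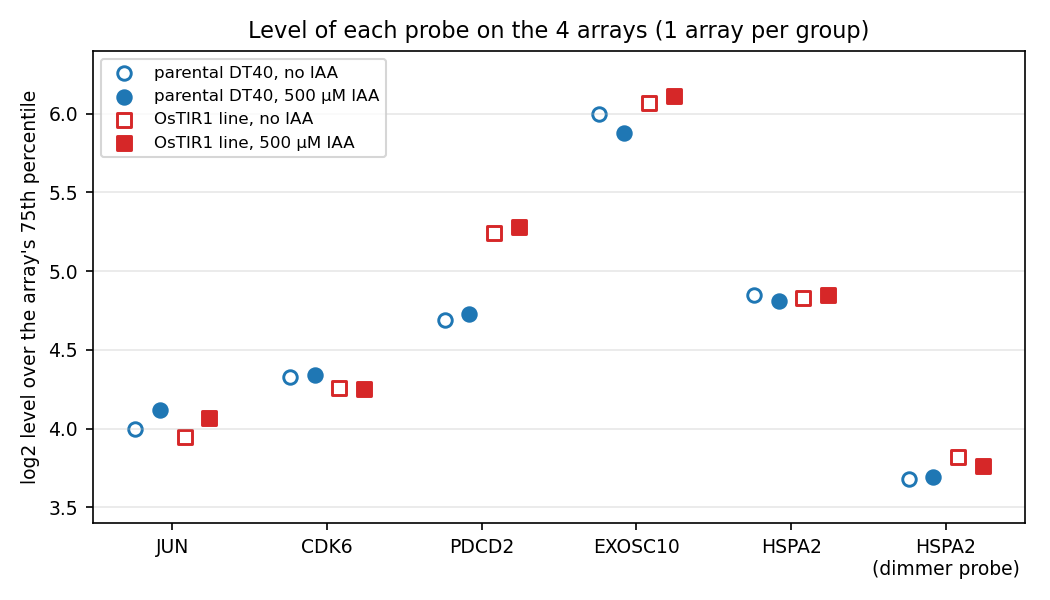
Level of each of the 6 probes (x axis) as log2 over the array's 75th percentile (y axis), 1 point per array. Open marks are untreated cultures, filled marks IAA-treated ones, circles parental DT40 and squares the OsTIR1 line. The 2 squares of PDCD2, at 5.24 and 5.28, stand clear of its circles at 4.69 and 4.73, and the 4 marks of the brighter HSPA2 probe lie between 4.81 and 4.85.

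The error of a single spot was judged in 2 ways. The scanner software gave each of the 6 probes an error of 10.0% of its signal, which makes a nominal 95% interval of 0.40 on either side of each difference on the log2 scale. This error is modelled by the software and was the same for all 6 probes. A measured error came from 2 spike-in transcripts, at mean levels of 4.82 and 5.85, with 64 pairs of spots for each pair of arrays. The central 95% of their differences ran from -0.10 to 0.13 for IAA in parental DT40 and from -0.06 to 0.10 for IAA in the OsTIR1 line. For the lines it ran from -0.13 to 0.10 without IAA and from -0.12 to 0.09 with it. The spike-in range below means this central 95%. Single spots reached further, from -0.14 to 0.17 for IAA in parental DT40 and from -0.07 to 0.12 in the OsTIR1 line. Between the lines they reached from -0.15 to 0.15 without IAA and from -0.15 to 0.16 with it. The mean levels of JUN (4.04), CDK6 (4.3) and the dimmer HSPA2 probe (3.74) lay below both spike-ins, and that of EXOSC10 (6.01) above both. For JUN, CDK6 and the dimmer HSPA2 probe the range therefore comes from brighter spots. A dimmer spike-in, at a mean level of 2.73, was left out. It lay just below the limit for use, which was 1 log2 unit under the 3.74 of the dimmer HSPA2 probe. That limit was chosen after values were seen. Neither the modelled nor the measured error holds the variation between cultures of 1 kind, which was not measured.

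JUN was slightly brighter with IAA in both lines. Its intensity was 2832 units in untreated parental DT40, 2914 in parental DT40 with IAA, 2651 in the untreated OsTIR1 line and 2833 in the OsTIR1 line with IAA. The levels of these 4 arrays were 4.0, 4.12, 3.95 and 4.07, so that both treated arrays lay above both untreated ones after scaling. The gap between the lower treated and the higher untreated level was 0.07. This order held for 9.54% of the 19436 probes above background everywhere. The difference with IAA was 0.11 in parental DT40 (nominal interval -0.29 to 0.51) and 0.12 in the OsTIR1 line (-0.28 to 0.52). The first lay inside the spike-in range and the second just outside it. Median scaling gave 0.28 and 0.23, and normexp with quantile normalization gave 0.21 in the OsTIR1 line.

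How many probes did the same was counted. Of the 4859 probes that made up the brightest 25% of those above background everywhere, 71 (1.46%) were at least as much higher with IAA in both lines, and of all 19436 probes 618 (3.18%) were. The IAA difference of JUN in the OsTIR1 line exceeded that in parental DT40 by 0.01. Between the lines the JUN difference, OsTIR1 minus parental, was -0.05 without IAA and -0.04 with it, and the line groups overlapped. The sign turned with median scaling in the first case and in 3 of 6 alternatives in the second.

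The best known partners of JUN could not be followed, since FOS, JUNB, ATF3 and MAPK8 have no named probe here. D-type cyclins, RNA exosome subunits, other HSP70 chaperones and small ribosomal subunit genes looked up have no value here either.

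CDK6 varied little. Its intensity was 3560 units in untreated parental DT40 and 3411 with IAA, and 3292 in the untreated OsTIR1 line and 3190 with IAA. The levels were 4.33, 4.34, 4.26 and 4.25 in the same order, a spread of 0.10 from lowest to highest. With IAA the difference was 0.01 in parental DT40 (-0.39 to 0.41) and -0.02 in the OsTIR1 line (-0.42 to 0.38). Both OsTIR1 arrays lay below both parental arrays, with a gap of 0.07. This order held for 26.6% of the 19436 probes above background everywhere. The line difference was -0.07 without IAA (-0.47 to 0.33) and -0.10 with IAA (-0.50 to 0.30), both inside the spike-in range. With median scaling the difference without IAA was 0.04, on the other side of 0.

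PDCD2 was the member with a line difference beyond the spread of the spike-in spots in both comparisons. Its intensity was 4564 units in untreated parental DT40 and 4464 with IAA, against 6462 in the untreated OsTIR1 line and 6510 with IAA. The parental levels were 4.69 and 4.73 and the OsTIR1 levels 5.24 and 5.28. The lines did not overlap, and the gap between them was 0.51. Both OsTIR1 arrays were above both parental ones, with a gap of any size, for 30.5% of the 19436 probes above background everywhere.

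The line difference of PDCD2 was 0.54 without IAA (nominal interval 0.14 to 0.94) and 0.54 with IAA (0.14 to 0.94), each a signal 45.8% higher in the OsTIR1 line. These 2 comparisons share no array but use the same 2 lines. Both values lay short of 1.5-fold, and the widest spike-in difference between the lines was 0.16. Among the 4859 brightest probes, 34 (0.70%) were at least as much higher in the OsTIR1 line in both comparisons, and 267 of the 19436 probes (1.37%) were. Counted in either direction, 1.73% of the brightest probes differed more without IAA and 1.56% with it. Of the probes above background on both arrays, 7.5% and 6.82% did. The 200 probes nearest to the PDCD2 spot that were above background everywhere had median line differences of 0.02 without IAA and -0.01 with it. The raw median pixel signal less local background gave 0.55 and 0.56 before any scaling.

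IAA did not separate the PDCD2 levels within a line, with a difference of 0.04 in each (-0.36 to 0.44 in both). Over all ways of processing tried, the line difference ran from 0.53 to 0.65 without IAA and from 0.50 to 0.59 with IAA. It passed 1.5-fold in both comparisons with median scaling, which by itself moved the median probe by 0.11 and 0.04. The median probe of an array lies near the limit of the background flag. Its part in the PDCD2 values under median scaling was not tested. That flag was passed by 47.8% and 49.9% of probes on the untreated and treated parental arrays, and by 58.0% and 55.4% on the OsTIR1 arrays.

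**Figure D2:**
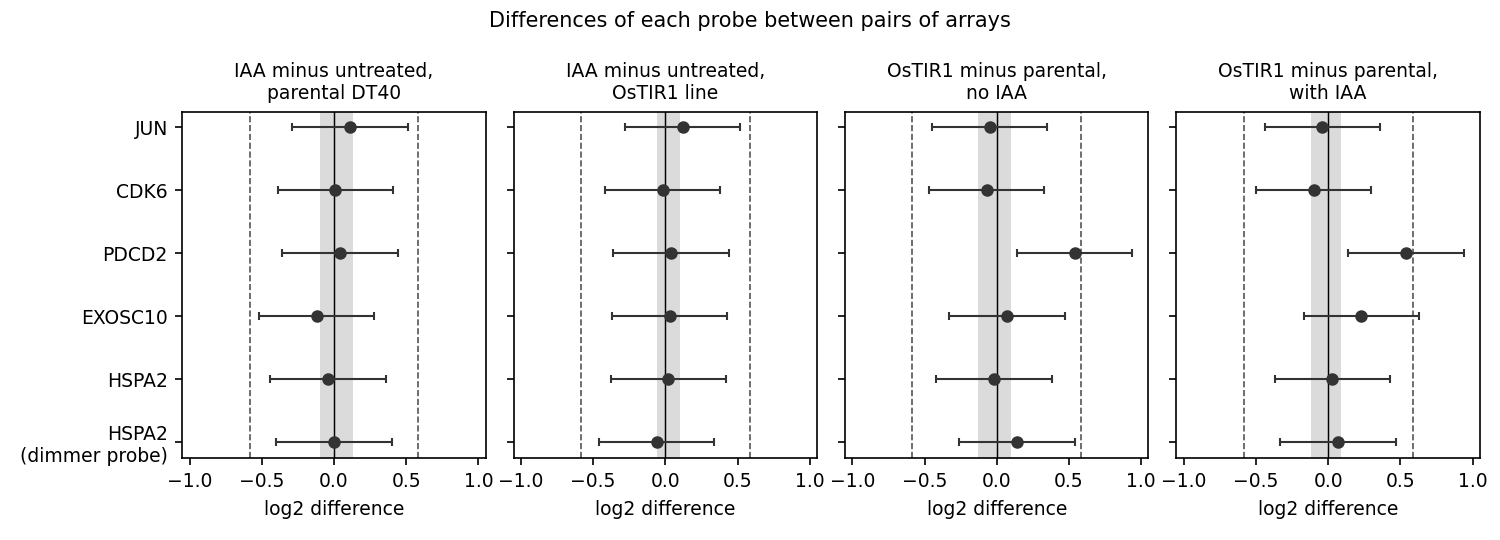
Log2 difference (x axis) of each probe (y axis) for the 4 pairs of arrays, with the nominal 95% interval from the scanner software as bars. The grey band holds the central 95% of spike-in spot differences and dashed lines mark 1.5-fold. PDCD2 between the lines, at 0.54 in both panels, is the single probe whose bars leave 0.

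EXOSC10 differed most where the IAA-treated parental array took part. Its intensity was 11295 units in untreated parental DT40, 9880 in parental DT40 with IAA, 11535 in the untreated OsTIR1 line and 11582 in that line with IAA. The levels of 6.00, 5.88, 6.07 and 6.11 put the treated parental array lowest. IAA went with a difference of -0.12 in parental DT40 (-0.52 to 0.28), outside the spike-in range, and of 0.03 in the OsTIR1 line (-0.37 to 0.43), inside it. Single spike-in differences in parental DT40 reached -0.14, past the EXOSC10 value. Median scaling turned the parental value to 0.04.

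Both OsTIR1 arrays lay above both parental arrays for EXOSC10, with a gap of 0.07. This order held for 30.5% of the 19436 probes above background everywhere. The line difference was 0.07 without IAA (-0.33 to 0.47) and 0.23 with IAA (-0.17 to 0.63), the second outside the spike-in range. The surroundings of this spot were also compared. The 200 nearest probes above background everywhere had median line differences of 0.11 without IAA and 0.10 with IAA, and median IAA differences of -0.06 in each line. Their part in the EXOSC10 values was not tested.

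HSPA2, listed with the synonym HSP70 in the RefSeq table, had the smallest range of the 6 probes by its brighter probe. Intensities were 5095 units in untreated parental DT40 and 4731 with IAA, and 4870 in the untreated OsTIR1 line and 4832 with IAA. Levels of 4.85, 4.81, 4.83 and 4.85 span 0.04, and 2.08% of the brightest 25% of probes had a smaller range over the 4 arrays. The dimmer probe did not show so small a range. The IAA difference was -0.04 in parental DT40 (-0.44 to 0.36) and 0.02 in the OsTIR1 line (-0.38 to 0.42). These signs turned in 3 of 7 alternatives in parental DT40 and in 5 of 7 in the OsTIR1 line, with median scaling at 0.13 and 0.12. Between the lines the difference was -0.02 without IAA and 0.03 with it. Over the 4 comparisons the nominal intervals reached from -0.44 to 0.43, so smaller changes could not be seen by that error.

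The dimmer HSPA2 probe gave intensities of 2271 units in untreated parental DT40 and 2163 with IAA, and of 2421 in the untreated OsTIR1 line and 2273 with IAA. Its levels of 3.68, 3.69, 3.82 and 3.76 put both OsTIR1 arrays above the parental ones, with a gap of 0.07, which the brighter probe did not show. As many as 30.5% of the 19436 probes above background everywhere had this order. IAA differences were 0.00 in parental DT40, inside the spike-in range, and -0.06 in the OsTIR1 line, just outside it. The line difference was 0.14 without IAA, outside the spike-in range, and 0.07 with IAA, inside it. Single spike-in differences reached -0.07 for IAA in the OsTIR1 line and 0.15 for the lines without IAA. Both probes stayed within 0.40 of 0 in every comparison.

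Read as a group, 0 of the 5 genes were at least 1.5-fold different with IAA in parental DT40, where 1.91% of the 19492 probes above background on both arrays were. In the OsTIR1 line 0 of 5 passed with IAA, against 2.19% of 22873 probes. Between the lines 0 of 5 passed without IAA, against 6.39% of 19709 probes, and 0 of 5 with IAA, against 5.86% of 20604. In the brightest 25% of probes these shares were 0.123% and 0.0206% for IAA and 1.44% and 1.23% for the line, so bright genes seldom passed. The median difference of the 5 genes was 0.01 and 0.03 for IAA in parental DT40 and in the OsTIR1 line, beside 0.00 and 0.02 for the brightest 25%. For the line it was -0.02 and 0.03 without and with IAA, beside 0.00 and 0.02.

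The separation of arrays gives the same picture. Both OsTIR1 arrays lay above both parental ones for PDCD2 and EXOSC10, 2 of 5 genes, as for 30.5% of the 19436 probes. CDK6, 1 of 5, showed the reverse, as did 26.6% of the probes. Both IAA arrays lay above both untreated ones for JUN, 1 of 5, as for 9.54% of the probes, and 0 of 5 showed the opposite, as 12.2% did. A gap alone is therefore common between the lines, and the size of the PDCD2 gap sets it apart from the 0.07 of EXOSC10 and CDK6.

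**Figure D3:**
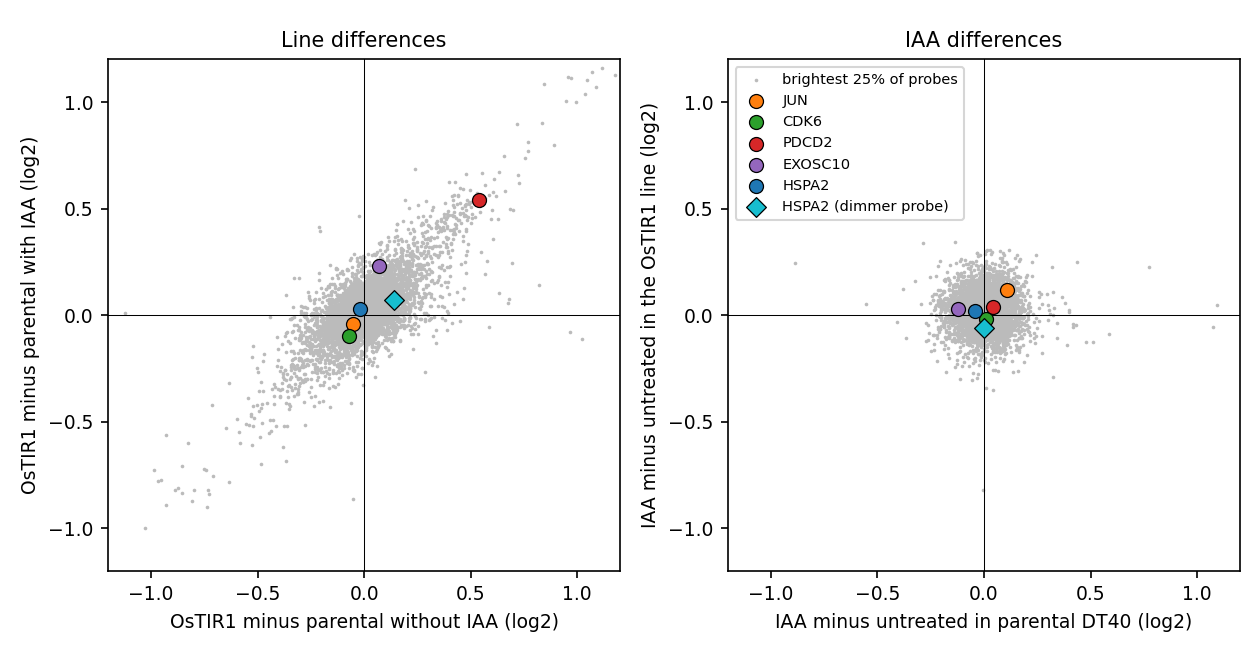
Left, log2 difference between OsTIR1 and parental DT40 without IAA (x axis) against that with IAA (y axis). Right, log2 difference with IAA in parental DT40 (x axis) against that in the OsTIR1 line (y axis). Grey dots are the brightest 25% of probes, of which 5 on the left and 1 on the right fall outside the axes, and coloured marks are the 6 probes. PDCD2 sits at 0.54 on both axes on the left, and on the right all 6 marks lie within the grey cloud.

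A model with line and IAA terms was fitted with limma to the 23100 probes above background on at least 2 arrays. It has 1 residual degree of freedom and uses the other treatment as the repeat of each line and the other line as the repeat of each treatment. For the line it called 0 of 23100 probes (0.0%) at a Benjamini-Hochberg adjusted p under 0.05, with 4333 at an unadjusted p under 0.05. For IAA it also called 0 (0.0%), with 1125 at an unadjusted p under 0.05. PDCD2 had a line effect of 0.54 in limma (SE 0.066, adjusted p = 0.146), higher on both OsTIR1 arrays than on both parental ones, and so did not pass.

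The PDCD2 call depended on the probes, the prior and the signal processing of the fit. The prior pulls a probe's own spread toward that of all probes, with a weight given as prior degrees of freedom. This weight was 1.81 in the fit above and 3.01 for probes above background on all arrays. It was 10.7 with trend and robust estimation and infinite after normexp with quantile normalization. An infinite weight gives all probes 1 common spread, so that fit ignored the spread of PDCD2. No fit had repeated cultures of a group for PDCD2. In limma on the 19436 probes above background on all arrays its adjusted p was 0.0405, and 910 probes (4.68%) passed. With trend and robust estimation limma gave 2.13e-05 as its adjusted p, and 2970 of 23100 probes (12.9%) passed. After normexp background correction together with quantile normalization the adjusted p in limma was 2.37e-10, and 2795 probes (12.1%) passed. Median scaling gave 0.126, quantile normalization 0.147 and no filter on dim probes 0.13 as adjusted p in limma.

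None of the other 4 genes passed for the line in any of these limma fits. EXOSC10 had a line effect of 0.15 with an adjusted p of 0.422 in limma, CDK6 one of -0.08 with 0.555, JUN one of -0.05 with 0.736 and HSPA2 one of 0.00 with 0.979. For IAA no member passed in any limma fit run, among them the fits with trend and robust estimation, which called 8 probes (0.0346%), and with normexp and quantile normalization, which called 109 (0.472%). JUN had the widest IAA effect, 0.12 (SE 0.066, adjusted p = 0.955 in limma). It was higher with IAA in both lines, each with 1 pair of arrays. At least as much higher in both were 3.18% of the 19436 probes above background everywhere. The IAA effects of the others were -0.04 for EXOSC10, 0.04 for PDCD2, -0.01 for HSPA2 and 0.00 for CDK6.

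**Figure D4:**
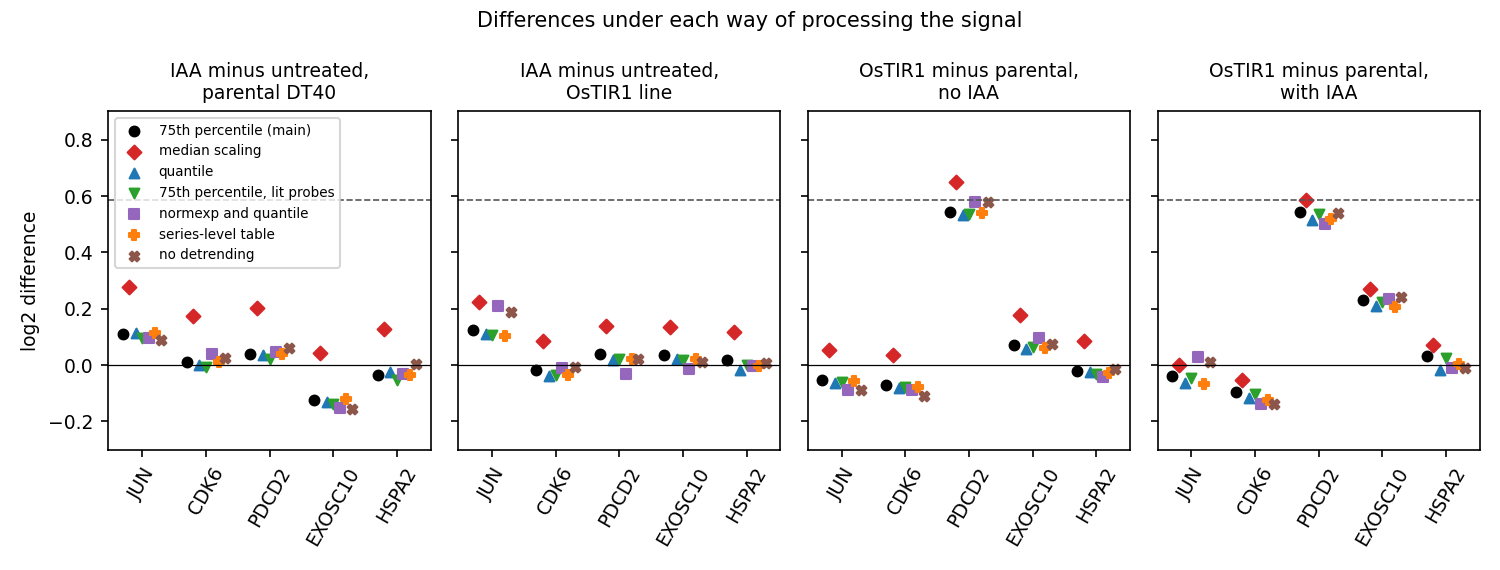
Log2 difference (y axis) of the 5 genes (x axis) for the 4 pairs of arrays under 7 ways of processing the signal, with 1 mark per way. The dashed line marks 1.5-fold. PDCD2 between the lines stays between 0.50 and 0.65, and JUN with IAA between 0.09 and 0.28 in parental DT40, with the highest value from median scaling.

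Named genes with a like pattern over the 4 arrays were sought among the 22 above background on all of them, by the distance between levels after each gene's own mean was taken away. PDCD2 had no close neighbour, with MC1R and CHRNG nearest at 0.27, against a median distance of 0.50 to the 21 others. MC1R, a melanocortin receptor gene, had levels of -3.15, -3.12, -2.66 and -2.89 in parental DT40 and the OsTIR1 line, untreated first in each. CHRNG, a muscle acetylcholine receptor subunit gene, had -0.89, -0.83, -0.55 and -0.61 in that order. Both were also higher on both OsTIR1 arrays, as were 30.5% of the 19436 probes above background everywhere. They were picked for likeness to PDCD2 on these same arrays, so the shared direction is no separate result. The lowest levels that passed the background flag were -3.62 on the untreated and -4.01 on the treated parental array, not far below MC1R.

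CDK6 was most like TRIM41, a ubiquitin ligase gene, at 0.03, with NRF1 next at 0.09. JUN was nearest to CDK6 and TRIM41 at 0.13, and HSPA2 to CDK6 and NRF1, a transcription factor gene, at 0.10. EXOSC10 was nearest to GJA4, a connexin gene, at 0.12. Genes whose levels hardly vary lie close to each other by this measure.

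The surroundings of the spots on the untreated parental array were also compared. Of the 500 probes nearest to each of them, at most 0.20% were above background on that array alone, against 0.766% over the whole array. The software's correction for position on the array multiplied the background-subtracted JUN signal by 1.30 in untreated parental DT40, 1.32 in treated parental DT40, 1.32 in the untreated OsTIR1 line and 1.27 in the treated one. For CDK6 these factors were 0.86 to 0.88. Without the correction the JUN difference with IAA was 0.09 in parental DT40 and 0.19 in the OsTIR1 line.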

How the data were processed

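RNA of 4 cultures was measured on 4 one-colour arrays, 1 per group, grouped by the sample titles. The intensity of each spot was made with Agilent Feature Extraction 10.5.1.1, which subtracted background and corrected for position, per the file headers; galGal2 is the build of the array grid there. The series-level table the authors deposited holds these intensities times a constant of 4.40 to 4.63 per array, found by comparison, with column medians of 55.9 to 65.6; its scale is linear and the reason for the constants stays unknown. The flags for spots above background are the software's own. Gene names came from a RefSeq table of assembly GRCg7b, which matched 51 of 66 RefSeq probes (50 genes). Control spots (1417 of 43451) were left out.

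Levels, pairwise differences, spike-in ranges and ranks were computed in Python 3.11.15 and the additive fit with limma 3.58.1 in R 4.3.3. A check on simulated data with independent noise asked only whether planted line differences were recovered on average. Where a gene had 2 probes the brighter one stands for it. Alternatives were median scaling, quantile normalization, the percentile over lit probes, normexp with an offset of 50 and quantile normalization on median pixel signals (mean signals are not in the array files used), the series-level table, other filters and priors, and, chosen after seeing the data, the signal without position correction. The named genes were the 5 members, the 2 named genes most like each, and every list gene with a named probe; some genes that this rule takes are not reported here. GPHN and LPIN2 were chosen after their values were seen, as was the use of spike-ins within 1 log2 unit of the members' levels. The members and lists were chosen with earlier results of these data known. The number of arrays limits the precision. Probe, promoter and protein sequences were not used here.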

Additional observations from a re-analysis of the deposited data

Results flagged for a closer look

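In 4 cases a gene lay on opposite sides of 0 in the 2 comparisons of a kind, which with 1 array per group any difference near 0 can do. The IAA difference of EXOSC10 was -0.12 in parental DT40 and 0.03 in the OsTIR1 line, 0.16 apart. That of HSPA2 was -0.04 and 0.02, 0.05 apart, and that of CDK6 was 0.01 and -0.02, with the OsTIR1 value lower by 0.03 (-0.03). The line difference of HSPA2 was -0.02 without IAA and 0.03 with it, 0.05 apart. The signs of the HSPA2 IAA differences turned in 3 and 5 of 7 alternatives. None of these differences between lines or treatments was tested, and all the values lie within the nominal interval of 0.40.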

How the results depend on the processing

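Replicate cultures could not be paired because each group has 1 array and the labels carry no replicate numbers. The additive fit itself compares the lines within each treatment and the treatments within each line. The count of members at least 1.5-fold different stayed at 0 in every comparison and setting except median scaling, where it was 1 without and 1 with IAA between the lines, PDCD2 both times. Among probes above background on all 4 arrays, 1 of the 5 genes in place of 5 stayed in the brightest 10%. For the line the additive fit called 0 probes, but 2970 when the prior used trend and robust estimation, 2795 after normexp and quantile normalization together and 910 once dimmer probes were left out. For IAA the calls were 0, 8 and 109 for the fit as reported, the trend and robust prior, and normexp with quantile normalization. Of 186 values of single genes under alternatives, 161 moved by less than 1 SD of the spike-in differences or kept their side of the threshold. Another 22 moved further and 3, all PDCD2 for the line, newly passed. Part of this agreement was set beforehand. Other filters and priors leave the effect sizes of the fit unchanged, and the series-level table holds the same intensities times a constant per array.

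Median scaling moved the median probe by 0.17 and 0.10 for IAA in parental DT40 and in the OsTIR1 line, and by 0.11 and 0.04 for the line without and with IAA. The share of higher ones among probes at least 1.5-fold different went from 27.2% to 64.2%, from 34.8% to 61.0%, from 35.2% to 54.3% and from 38.8% to 47.1% in that order. Quantile normalization gave 46.2%, 60.7%, 40.0% and 41.4%. Normexp on median pixel signals with quantile normalization, which changes several choices at once, left 31, 10, 324 and 280 such probes of 372, 500, 1260 and 1207, with 67.7%, 10.0%, 47.5% and 43.9% higher. The causes were not tested. The raw signal of the member spots was at least 107 times the local background, so detection limits none of them, while the lack of repeated cultures limits all.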
